A study of Rattus norvegicus with 20 samples.

Results

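The genes of the proteasome were read in the livers of male Harlan Sprague Dawley rats given isodecyl diphenyl phosphate, a flame-retardant plasticiser of the aryl phosphate ester class (IDDP below). They were taken as every gene whose array annotation gives exactly 1 symbol that begins with Psma, Psmb, Psmc or Psmd followed by a digit. This found 37 genes among the 14217 genes that have a probe set with 1 symbol, and where a gene had several such probe sets the brightest over the 20 arrays was used. Corn oil with or without IDDP was given by oral gavage once a day for 4 days, and liver was taken on day 5. The vehicle control had 5 rats, and each dose had 3: 66 mg/kg (0.169 mmol/kg), 132 mg/kg (0.338 mmol/kg), 263.6 mg/kg (0.675 mmol/kg), 527.1 mg/kg (1.35 mmol/kg) and 1054.2 mg/kg (2.7 mmol/kg). The labels name no genetic change in any group, and each array held RNA from the left liver lobe of 1 rat. The p-values below measure the spread between rats.

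The proteasome is the protease that degrades proteins tagged with ubiquitin. Its 20S core is a barrel of alpha rings, which form the gate, around beta rings, which carry the protease sites. The 19S cap binds the ubiquitin chain, unfolds the substrate with a ring of ATPases and feeds it into the core, and cells exposed to interferon replace the catalytic beta subunits by immunoproteasome forms that favour peptides for MHC class I. The transcription factor NRF1, encoded by Nfe2l1, raises proteasome gene transcription when proteasome activity is short, and the oxidative stress factor NRF2, encoded by Nfe2l2, has been linked to expression of some subunits in rodent liver.

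The 37 genes comprised 7 alpha subunits (Psma1 to Psma7), 6 constitutive beta subunits (Psmb1 to Psmb5 and Psmb7), 3 immunoproteasome beta subunits (Psmb8, Psmb9 and Psmb10), 6 ATPases of the 19S cap (Psmc1 to Psmc6) and 11 of its other subunits (Psmd1, Psmd2, Psmd3, Psmd4, Psmd6, Psmd7, Psmd8, Psmd11, Psmd12, Psmd13 and Psmd14). A further 3, Psmd5, Psmd9 and Psmd10, carry a Psmd symbol but encode chaperones that assemble the base of the cap. Psmc3ip was caught by its symbol although it encodes a meiotic recombination factor, so the label does not hold for it. Psmb6 was not among them because its probe set is annotated to 2 symbols, and Psma3 has a close copy, Psma3l, so its signal is uncertain. All 37 probe sets had a mean above the median of all array values (6.36 on the log2 scale), and that of Psmc3ip was 6.69 ± 0.13 in controls (SD, n = 5). Hepatocyte markers were bright in every group: the mean over 9 markers lay between 14.07 and 14.27 in every rat.

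Some arrays stood apart in RNA quality. On control probe sets for GAPDH and beta-actin the 3′ signal minus the 5′ signal, a log2 measure that grows as RNA is degraded, was 1.64 ± 0.27 in controls (SD, n = 5) and 1.68 ± 0.11 at 1054.2 mg/kg (SD, n = 3). It reached 3.25 in replicate 2 at 132 mg/kg and 2.47 in replicate 2 at 263.6 mg/kg. Counts at 132 and 263.6 mg/kg and in the dose trend are given with and without these 2 arrays. Replicate 1 at 132 mg/kg (2.17) and replicate 2 at 66 mg/kg (2.04) also lay above all controls (1.24 to 1.89) and were kept in these counts. Array medians ran from 6.32 to 6.41 on the log2 scale.

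At 1054.2 mg/kg the transcripts of the proteasome stayed close to the control level. None of the 37 genes passed limma's test at an adjusted p of 0.05, against 3.3% of all 31042 probe sets tested. The change from control ran from -0.20 for Psmd1 to 0.37 for Psmd5 on the log2 scale, with a median of 0.13, and 32 of the 37 changes lay above 0. Over all probe sets the median was -0.01 and 48.5% lay above 0, and over the brighter probe sets the median was 0.02 and 53.1% lay above 0. At an unadjusted p under 0.05, 10 genes were higher (27% of the 37) and 0 were lower. Over all probe sets 8.29% were higher and 6.79% lower, and 12.7% of the brighter ones were higher. In 5 genes, Psma6, Psmc3, Psmd4, Psmd7 and Psmd12, all 3 rats lay above all 5 controls (13.5% of the 37, against 6.6% of all probe sets and 10.5% of the brighter ones). The median standard error was 0.10, and for 33 of 37 genes the 95% confidence interval, not adjusted for the number of genes, lay inside a 1.5-fold change in either direction. The interval reached past a 1.5-fold increase for Psmb3, Psmc6 and Psmd5, and past a 1.5-fold decrease for Psmb8, whose lower bound was -0.68.

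**Figure D1:**
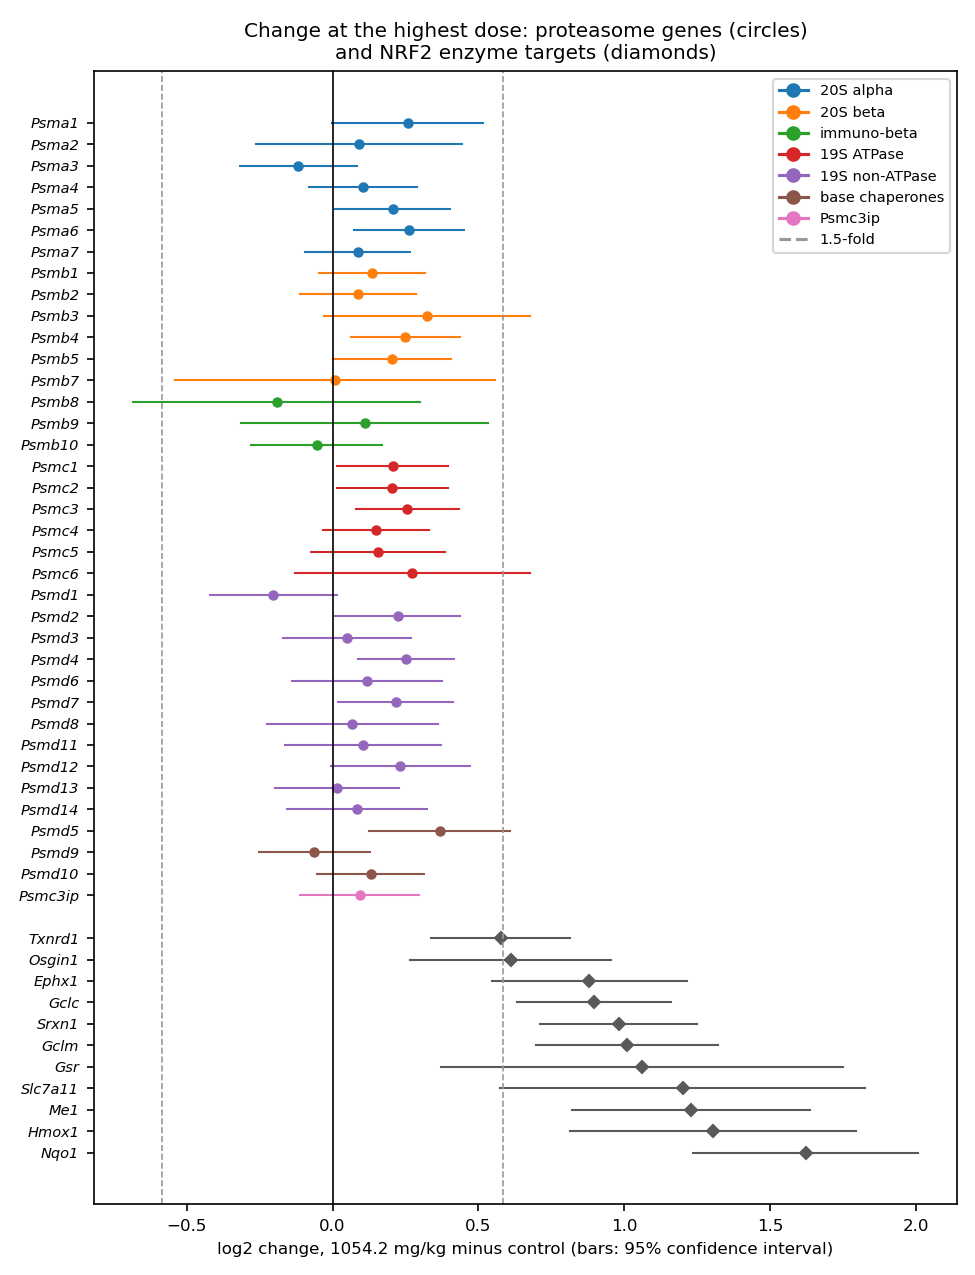
Log2 change from control at 1054.2 mg/kg (x axis) for each of the 37 proteasome genes (circles, coloured by class) and 11 NRF2 enzyme targets (diamonds), with bars for the 95% confidence interval from limma and dashed lines at a 1.5-fold change. The proteasome genes lie between -0.20 and 0.37, while the NRF2 targets lie between 0.58 and 1.62.

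The 3 lowest adjusted p-values at this dose belonged to Psmd4, Psmd5 and Psmc3. Psmd4 is the ubiquitin receptor of the cap that binds the chain directly. Its log2 levels were 9.75, 9.79, 9.92, 10.00 and 9.88 in controls, 9.93, 9.93 and 10.02 at 527.1 mg/kg and 10.03, 10.15 and 10.19 at 1054.2 mg/kg. All 3 rats of the highest dose lay above all 5 controls, by a narrow margin in replicate 1. The difference was 0.25 ± 0.08 (SE), or 1.19-fold, and did not pass (limma, adjusted p = 0.0898). Psmd5 encodes a chaperone that holds ATPases of the base before the cap is complete. Its levels were 9.75, 9.40, 9.72, 9.70 and 9.75 in controls, 9.63, 9.86 and 9.91 at 527.1 mg/kg and 9.73, 10.23 and 10.13 at 1054.2 mg/kg. Replicate 1 of the highest dose lay within the controls and the other rats above them. The difference was 0.37 ± 0.12 (SE), or 1.29-fold, with an interval of 0.13 to 0.61, and missed the threshold (limma, adjusted p = 0.0944). Without replicate 1 of that group it was 0.52 and passed (limma, adjusted p = 0.016). Psmc3, an ATPase of the ring, differed by 0.26 ± 0.08 (SE; limma, adjusted p = 0.114).

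Among the alpha subunits, 6 of 7 changes at 1054.2 mg/kg lay above 0, with a median of 0.10. Psma6 had the largest. Its levels were 12.04, 12.19, 12.17, 12.21 and 12.17 in controls, 12.27, 12.29 and 12.16 at 527.1 mg/kg and 12.36, 12.44 and 12.47 at 1054.2 mg/kg. The highest dose lay above every control, by 0.26 ± 0.09 (SE), or 1.20-fold, short of the threshold (limma, adjusted p = 0.133). Psma7 had the smallest. Its levels were 11.42, 11.43, 11.49, 11.57 and 11.48 in controls, 11.51, 11.37 and 11.56 at 527.1 mg/kg and 11.38, 11.60 and 11.71 at 1054.2 mg/kg, so that treated and control rats overlapped (0.09 ± 0.09, SE; limma, adjusted p = 0.725).

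All 6 constitutive beta subunits had changes above 0 at 1054.2 mg/kg, with a median of 0.17, and none passed. Psmb3, a structural subunit without a protease site, had the largest change. Its levels were 10.84, 10.53, 10.71, 10.80 and 10.84 in controls, 10.80, 10.86 and 10.83 at 527.1 mg/kg and 10.77, 11.12 and 11.32 at 1054.2 mg/kg. Replicates 2 and 3 lay above all controls and replicate 1 within them (0.32 ± 0.17, SE; limma, adjusted p = 0.393). Psmb7, which carries the trypsin-like site, had the smallest change. Its levels were 10.36, 9.91, 9.57, 9.91 and 10.09 in controls, 10.27, 9.87 and 10.42 at 527.1 mg/kg and 9.89, 9.74 and 10.31 at 1054.2 mg/kg. The rats of each group spread over a wide range, and the difference was 0.01 ± 0.26 (SE; limma, adjusted p = 0.994). Psmb5, with the chymotrypsin-like site, differed by 0.20 ± 0.10 (SE; limma, adjusted p = 0.332).

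All 6 ATPases of the ring had changes above 0 at 1054.2 mg/kg, from 0.15 to 0.27, with a median of 0.21. Psmc6 had the largest of these changes. Its levels were 10.25, 10.31, 10.45, 10.36 and 10.24 in controls, 10.35, 10.32 and 10.36 at 527.1 mg/kg and 10.40, 10.82 and 10.56 at 1054.2 mg/kg. Replicate 1 lay within the controls (0.27 ± 0.19, SE; limma, adjusted p = 0.57). Psmc4 was the ATPase with the smallest change. It stood at 10.72, 10.62, 10.83, 10.84 and 10.71 in controls, 10.71, 10.84 and 10.83 at 527.1 mg/kg and 10.78, 10.90 and 11.01 at 1054.2 mg/kg (0.15 ± 0.09, SE; limma, adjusted p = 0.461). The other subunits of the cap had a median of 0.11, with 10 of 11 above 0. Psmd13 stayed level, at 9.32, 9.55, 9.61, 9.70 and 9.67 in controls, 9.56, 9.64 and 9.74 at 527.1 mg/kg and 9.51, 9.53 and 9.70 at 1054.2 mg/kg (0.02 ± 0.10, SE; limma, adjusted p = 0.972). Psmd1, the large scaffold of the base, was the exception in sign, at 9.70, 9.72, 9.76, 9.93 and 9.82 in controls and 9.49, 9.50 and 9.76 at the highest dose. Its difference of -0.20 ± 0.10 (SE) did not pass (limma, adjusted p = 0.378).

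The remaining named genes overlapped the controls. Psmd9, another base chaperone, stood at 9.35, 9.26, 9.56, 9.45 and 9.39 in controls, 9.22, 9.38 and 9.44 at 527.1 mg/kg and 9.17, 9.44 and 9.40 at 1054.2 mg/kg (-0.06 ± 0.09, SE; limma, adjusted p = 0.827). Psmc3ip, which is no subunit, stood at 6.75, 6.85, 6.60, 6.52 and 6.72 in controls, 6.64, 6.90 and 6.85 at 527.1 mg/kg and 6.77, 6.77 and 6.80 at 1054.2 mg/kg (0.09 ± 0.10, SE; limma, adjusted p = 0.742). A second look was possible for 7 of the 37 genes, which have more than 1 probe set. None of the 48 probe sets with 1 of these symbols passed in any comparison. At 1054.2 mg/kg both other, dimmer probe sets of Psmb5 differed by -0.10 and -0.12, against 0.20 in the one used. A dim probe set of Psmd11 differed by -0.11, against 0.11 in the one used. All remaining ones had the sign of the probe set used.

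**Figure D2:**
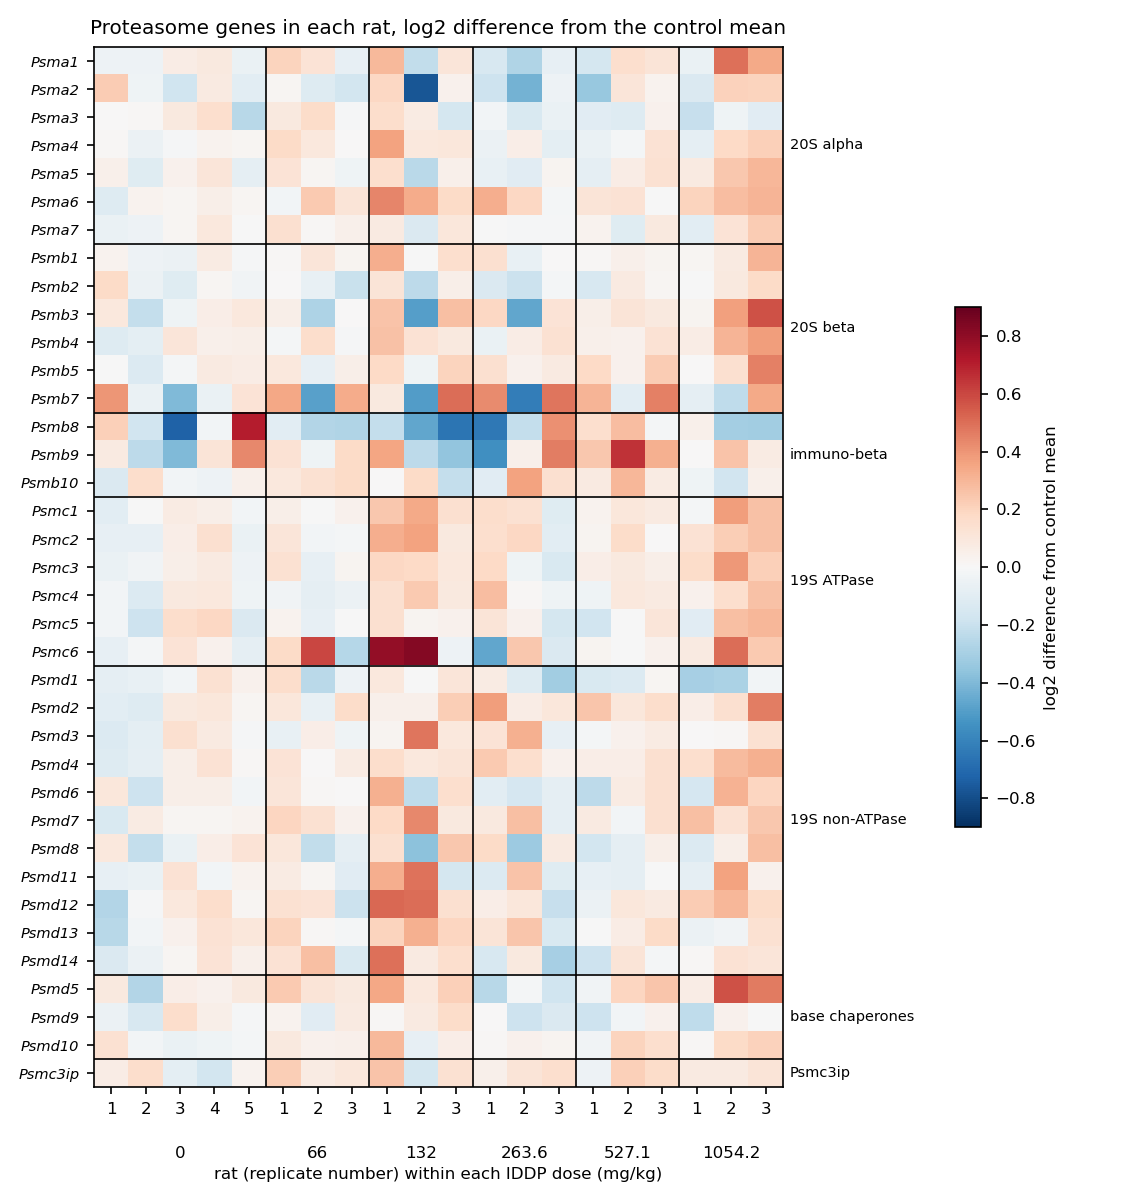
Log2 difference from the control mean (colour) for each of the 37 genes (rows, by class) in each rat (columns, by IDDP dose in mg/kg and replicate number). Replicate 1 at 132 mg/kg and replicates 2 and 3 at 1054.2 mg/kg are mostly above the control mean, while Psmb7, Psmb8 and Psmb9 vary between rats of the same dose.

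The lower doses gave no call either. At 66 mg/kg 0 of 37 genes passed limma's test at an adjusted p of 0.05 (0.00644% of all probe sets) and 0 at an unadjusted p under 0.05 in either direction (3.24%). The median change was 0.04, with 27 changes above 0 (73% of the 37, against 49.6% of all probe sets and 56.5% of the brighter ones). At 263.6 mg/kg 0 passed (0.428% of all probe sets), 0 at an unadjusted p under 0.05 (11.9%), and the median was -0.00, with 18 changes above 0 (53.5% of all probe sets). Without replicate 2 at that dose 0 again passed, 0 at an unadjusted p under 0.05, the median was -0.01 and 18 changes lay above 0 (54.6% of all probe sets). At 527.1 mg/kg 0 passed (1.68% of all probe sets), and 0 at an unadjusted p under 0.05 (13.6%). The median was 0.05, with 27 changes above 0 (73% of the 37, against 48.6% of all probe sets and 53.4% of the brighter ones). The smallest adjusted p at these doses was 1, 0.499 for Psma6 and 0.401 for Psmb9, by limma. All 5 doses were compared with the same 5 controls.

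At 132 mg/kg 0 of 37 genes passed limma's test at an adjusted p of 0.05 (0.0677% of all probe sets), while 9 were higher at an unadjusted p under 0.05 (24.3% of the 37, against 8.11% of all probe sets and 13% of the brighter ones) and 0 were lower (6.78% of all probe sets). The median change was 0.10, or 0.050 when the arrays were quantile normalized again. Of the changes, 31 lay above 0 (83.8% of the 37, against 46.2% of all probe sets and 57% of the brighter ones). In 7 genes, Psma4, Psma6, Psmc1, Psmc3, Psmd5, Psmd7 and Psmd13, all 3 rats lay above all controls (18.9% of the 37, against 4.32% of all probe sets and 6.78% of the brighter ones). The lowest adjusted p was that of Psma6, whose rats stood at 12.59, 12.49 and 12.33 (0.31 ± 0.09, SE; limma, adjusted p = 0.154). The largest change was that of Psmc6, whose rats stood at 11.11, 11.15 and 10.27 (0.52 ± 0.19, SE; limma, adjusted p = 0.229). Replicate 3 lay at the control level and the other rats well above it. Psmd12, a cap subunit, stood at 10.23, 10.22 and 9.86 in the same rats (0.39 ± 0.11, SE; limma, adjusted p = 0.161). Without replicate 3, 3 genes passed limma's test at this dose: Psmc6 (0.81, adjusted p = 0.0223), Psmd12 (0.51, adjusted p = 0.0277) and Psma6 (0.39, adjusted p = 0.0372). Replicate 3 was the only rat of this dose whose 3′ to 5′ difference (1.49) lay within the controls (1.24 to 1.89). The rats left in that fit had 2.17 and 3.25. Without replicate 2, the array of the highest 3′ to 5′ difference, none passed and 6 were higher at an unadjusted p under 0.05, a share not counted over all probe sets. The median was then 0.17, and 34 changes lay above 0 (46.4% of all probe sets). In 14 genes both remaining rats lay above all controls (37.8% of the 37, against 6.34% of all probe sets and 9.3% of the brighter ones). Of these rats, replicate 1 had a 3′ to 5′ difference of 2.17, still above all controls.

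Across the ordered doses, the slope on the dose step from control to the highest dose passed in 0 of 37 genes (5.05% of all probe sets) by limma. Of the 37 slopes, 32 lay above 0 (86.5%, against 49.8% of all probe sets and 52.3% of the brighter ones). At an unadjusted p under 0.05, 5 slopes were above 0 (13.5% of the 37, against 9.13% of all probe sets and 14% of the brighter ones) and 0 below (7.58%). Without the 2 arrays of highest 3′ to 5′ difference, 0 passed and 7 slopes were above 0 at an unadjusted p under 0.05. The share of all probe sets at this unadjusted threshold was not counted in that fit. Psmd4 came closest, at 0.04 ± 0.01 log2 per step (SE; limma, adjusted p = 0.0804), and passed when dim probe sets were left out of the adjustment (adjusted p = 0.0482). From 527.1 to 1054.2 mg/kg, 0 of 37 genes passed limma's test (0.0129% of all probe sets), and 0 at an unadjusted p under 0.05 in either direction (6.08%). The median difference was 0.12, with 28 differences above 0 (75.7% of the 37, against 50% of all probe sets and 49.2% of the brighter ones). In 5 genes, Psma6, Psmc3, Psmc6, Psmd4 and Psmd12, all rats at 1054.2 mg/kg lay above all at 527.1 mg/kg (4.36% of all probe sets and 3.88% of the brighter ones did so), and in Psmb10 all lay below (5.59%).

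Rats of the same dose differed in the set as a whole. The mean over the 37 genes, as a log2 difference from the control mean, was 0.00, 0.17 and 0.21 in the rats at 1054.2 mg/kg and 0.22, 0.03 and 0.08 at 132 mg/kg. It was -0.01, -0.07, -0.01, 0.06 and 0.03 in the controls. Replicate 1 of the highest dose therefore stood at the control level, with 21 of its 37 genes above their control mean, while replicates 2 and 3 had 31 and 33 above. The group means were 0.03 ± 0.06, 0.11 ± 0.10, -0.00 ± 0.01, 0.06 ± 0.06 and 0.13 ± 0.11 (SD, n = 3) in order of dose, with no steady course along the doses. In bulk tissue a change in the share of a cell type and a change in RNA per cell cannot be told apart.

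Enzymes that NRF2 is known to induce were read in the same rats. Of 11 measured, 10 rose at 1054.2 mg/kg (1.86% of all probe sets did), with a median of 1.01, and all but Gsr (1.06 ± 0.33, SE; limma, adjusted p = 0.0893) passed. Nqo1, a quinone reductase, stood at 8.20, 8.004, 8.22, 8.21 and 8.56 in controls and 9.53, 9.65 and 10.41 at 1054.2 mg/kg. It rose by 1.62 ± 0.18 (SE), or 3.08-fold, with no overlap (limma, adjusted p = 2.95e-05). Hmox1, which breaks down haem, rose by 1.30 ± 0.23 (SE; limma, adjusted p = 0.00302) and Me1, which makes NADPH, by 1.23 ± 0.20 (SE; limma, adjusted p = 0.000916). Per rat, the mean over the 11 enzymes was 0.80, 0.90 and 1.40 above the control mean at 1054.2 mg/kg, beside 0.00, 0.17 and 0.21 for the proteasome genes. At 527.1 mg/kg it was 0.60, 0.43 and 0.63, beside -0.01, 0.08 and 0.10. The difference between the gene sets was not tested.

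**Figure D3:**
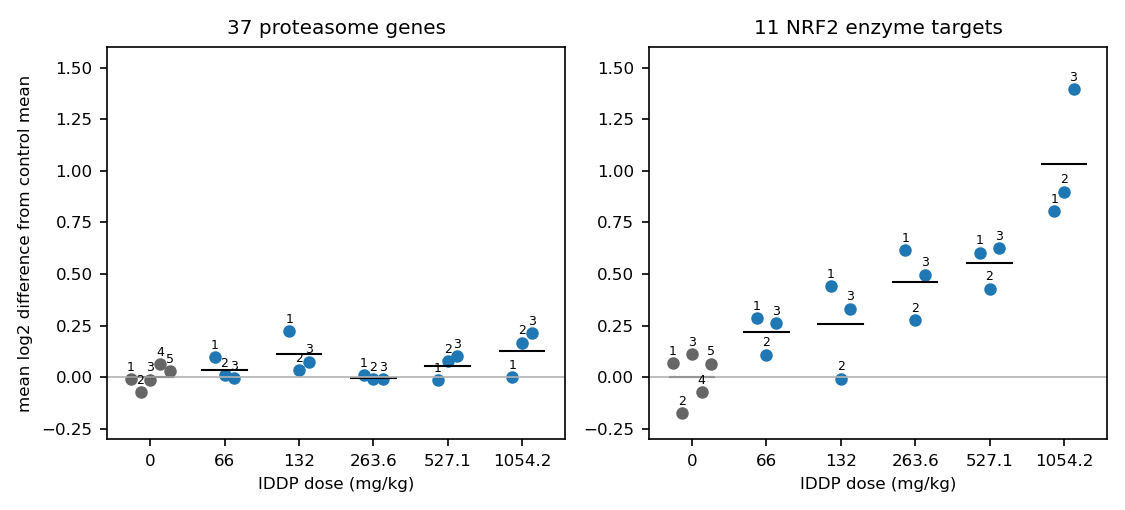
Mean log2 difference from the control mean (y axis) in each rat, by IDDP dose in mg/kg, over the 37 proteasome genes (left) and 11 NRF2 enzyme targets (right), with bars at the group mean and replicate numbers above the points. The proteasome mean stays between -0.07 and 0.22 in every rat, while the NRF2 mean at 1054.2 mg/kg is 0.80 to 1.40.

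The promoters of both sets are shown because NRF1 and NRF2 bind the same antioxidant response element. Its core, TGACNNNGC on either strand, was searched in the 250 bases before the start given for each promoter (GRCr8). That start was the RefSeq gene start in 19339 of 33469 promoters, and the other windows lie elsewhere. Of the 37 genes, 33 had a promoter in this set. The core occurred in 5 of these 33 (15.2%), Psma3, Psmb2, Psmb5, Psmd1 and Psmd9, and in 10.1% of all 33469 promoters. It also occurred in 4 of 11 promoters of NRF2 targets. These 11 are promoters and not the 11 measured enzymes, since Ephx1 is counted at different starts. Below are 3 of the proteasome genes and, for comparison, 2 of the enzymes, each written 5′ to 3′ on the gene's strand with the core in capitals. In Gclm and Ephx1 the core lies on the opposite strand.
Psmb2, chr5:144254970-144255018, plus strand: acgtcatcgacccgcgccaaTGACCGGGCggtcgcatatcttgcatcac
Psmb5, chr15:32047411-32047459, minus strand: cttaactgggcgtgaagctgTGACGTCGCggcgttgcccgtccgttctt
Psmd1, chr9:94157786-94157834, plus strand: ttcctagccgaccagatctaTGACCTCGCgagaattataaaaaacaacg
Gclm, chr2:213031943-213031991, plus strand: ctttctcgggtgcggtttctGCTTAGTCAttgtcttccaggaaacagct
Ephx1, chr13:95263146-95263194, minus strand: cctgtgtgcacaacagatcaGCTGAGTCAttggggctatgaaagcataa

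At 1054.2 mg/kg Psmb2, Psmb5 and Psmd1 differed from control by 0.09, 0.20 and -0.20 on the log2 scale, none of them called, while Gclm and Ephx1 rose by 1.01 and 0.88 (limma, adjusted p = 0.000477 and 0.00319). The other enzymes with the core were Txnrd1 and Me1, which rose by 0.58 and 1.23. Nqo1, Srxn1 and Gclc, whose windows held no core, rose by 1.62, 0.98 and 0.90. The letters of the core are a match in sequence only. The motifs were chosen with the expression values known. The GC box GGGCGG occurred in 22 of the 33 proteasome promoters (66.7%, against 30.5% of all) and CCAAT in 18 (54.5%, against 34%), on either strand.

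Other genes that work with the proteasome were read from lists drawn up by role. Of 10 activators, inhibitors and core assembly factors, none passed limma's test at 1054.2 mg/kg (4 at an unadjusted p under 0.05), with a median of 0.20. Psme1, a subunit of the interferon-inducible PA28 activator, had the largest change. Its levels were 12.27, 12.14, 11.93, 12.03 and 12.11 in controls, 12.37, 12.40 and 12.39 at 527.1 mg/kg and 12.30, 12.52 and 12.41 at 1054.2 mg/kg. All treated rats of both doses lay above the controls (0.32 ± 0.09, SE, at 1054.2 mg/kg; limma, adjusted p = 0.0579), and Psme1 passed without control replicate 1 (0.36; adjusted p = 0.0386) and under 7 of 10 other settings, whose adjusted p ran from 0.024 to 0.232. Its slope over the doses was called (0.07 log2 per step; limma, adjusted p = 0.00569, and 0.059 without the highest dose), as was that of Psme4, the PA200 activator (0.06; limma, adjusted p = 0.0246). A second, dimmer probe set of Psme1 differed by -0.10 and was not called.

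A list of 9 genes for ubiquitin receptors, deubiquitinases and other proteins found at the cap held Adrm1 and Sem1, cap subunits that the symbol rule misses. Of these 9 genes, 1 rose at 1054.2 mg/kg (1.86% of all probe sets did). This was Ubqln2, a shuttle that brings ubiquitinated proteins to the proteasome, at 10.07, 9.94, 10.06, 9.95 and 10.07 in controls and 10.39, 10.97 and 10.53 at the highest dose. It rose by 0.62 ± 0.12 (SE), or 1.53-fold (limma, adjusted p = 0.00657), and without replicate 2 of that dose by 0.45 (adjusted p = 0.0645). Its 2 other, dim probe sets differed by -0.07 and -0.04. Usp14, the deubiquitinase that trims chains at the cap, differed by 0.41 ± 0.11 (SE) and did not pass (limma, adjusted p = 0.0523).

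Of 9 regulators of proteasome genes, 1 rose at 1054.2 mg/kg (1.86% of all probe sets did), Nfe2l1, which encodes NRF1. Its levels were 8.79, 8.67, 8.93, 8.75 and 8.89 in controls and 9.10, 9.47 and 9.30 at 1054.2 mg/kg, with no overlap. It rose by 0.49 ± 0.10 (SE), or 1.40-fold (limma, adjusted p = 0.00957). The call was lost without replicate 2 (0.39; adjusted p = 0.0824) or replicate 3 (0.48; adjusted p = 0.0542) of the highest dose. Nfe2l1 also rose at 527.1 mg/kg, where it stood at 9.13, 9.27 and 9.23 (0.40 ± 0.10, SE; limma, adjusted p = 0.0461). Its slope was called (0.09 log2 per step; limma, adjusted p = 0.00136), and stayed so in all 20 fits that left out 1 rat and all 10 under other settings. Of its 2 other probe sets, 1 was called (0.60; limma, adjusted p = 0.00455) and 1 was not (0.17; limma, adjusted p = 0.359). Nfe2l2, which encodes NRF2 itself, differed by -0.42 ± 0.17 (SE; limma, adjusted p = 0.235). None of 9 ubiquitin, E1 and p97 genes passed limma's test (2 at an unadjusted p under 0.05; the largest, Uba1, -0.34 ± 0.25, SE), and none of 9 heat shock chaperones did (1 at an unadjusted p under 0.05; the largest, Hsph1, 0.42 ± 0.18, SE). Over all probe sets 15.1% had an unadjusted p under 0.05 in either direction at 1054.2 mg/kg, and 21.8% of the brighter ones did.

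The immunoproteasome subunits spread widely between rats of the same dose, and none passed at any dose. The spread between rats of a group, as a residual SD, had a median of 0.13 over the 37 genes and 0.16 over all probe sets. It was 0.37 for Psmb8 and 0.31 for Psmb9, which lie at percentiles 96.9 and 94.4 of all probe sets. Psmb8 stood at 10.48, 10.09, 9.54, 10.24 and 10.97 in controls, 10.42, 10.54 and 10.25 at 527.1 mg/kg and 10.31, 9.96 and 9.95 at 1054.2 mg/kg. The controls alone covered the range of both doses (-0.19 ± 0.24, SE, at 1054.2 mg/kg; limma, adjusted p = 0.786). Psmb9 stood at 9.41, 9.09, 8.94, 9.45 and 9.77 in controls, 9.57, 9.98 and 9.65 at 527.1 mg/kg and 9.33, 9.58 and 9.41 at 1054.2 mg/kg. Its difference at 527.1 mg/kg, the largest of the 37 at that dose, was 0.40 ± 0.20 (SE), or 1.32-fold (limma, adjusted p = 0.401), and it was 0.11 ± 0.20 (SE) at 1054.2 mg/kg (adjusted p = 0.87). Psmb10 stood at 8.92, 9.21, 9.03, 9.01 and 9.10 in controls, 9.13, 9.36 and 9.13 at 527.1 mg/kg and 9.02, 8.88 and 9.10 at 1054.2 mg/kg, within or near the controls throughout (-0.05 ± 0.11, SE; limma, adjusted p = 0.879).

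Psmb9, Psmb8 and Tap1 varied together from rat to rat. Tap1 encodes a subunit of the transporter that carries peptides to MHC class I, and in the RefSeq GRCr8 gene order Psmb8, Tap1 and Psmb9 are neighbours. Tap1 stood at 8.30, 8.13, 8.11, 8.49 and 8.76 in controls, 8.55, 8.95 and 8.70 at 527.1 mg/kg and 8.41, 8.68 and 8.53 at 1054.2 mg/kg. Control replicate 5 was the highest control in Psmb8, Psmb9 and Tap1, and control replicate 3 the lowest in all 3. Over 20 rats, Psmb9 and Tap1 had a Pearson r of 0.92 (permutation p = 1e-05, the smallest that 100000 permutations can give, adjusted 6e-05) and a Spearman rho of 0.86 (permutation p = 1e-05, adjusted 6e-05). Without the 2 rats farthest from the median of Psmb9, r was 0.87. On deviations from the group means, r was 0.92.

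Psmb8 and Psmb9 had r = 0.79 (permutation p = 2e-05, adjusted 6e-05) and rho = 0.70 (permutation p = 0.00084, adjusted 0.00252), with 0.77 without the 2 farthest rats. Psmb8 and Tap1 had r = 0.69 (permutation p = 0.00087, adjusted 0.00174) and rho = 0.58 (permutation p = 0.00779, adjusted 0.0156), with 0.64 without the 2 farthest. The 3 relations of Psmb10 with these genes had r from 0.27 to 0.39 and did not pass (permutation p = 0.0888 at the lowest). These 6 relations were chosen after the values had been seen. Markers of macrophages, which can carry the immunoproteasome, had lower group means at every dose, though 0 of 9 were called at 66, 132, 263.6 or 527.1 mg/kg. In order of these doses, 2, 7, 4 and 8 of the 9 were lower at an unadjusted p under 0.05 (limma). Over all probe sets 1.54%, 6.78%, 5.25% and 5.98% were lower at that threshold. The mean level over 9 Kupffer cell and macrophage markers was 9.73 to 10.23 in controls, 9.40 to 10.02 at 66 mg/kg, 9.39 to 9.58 at 132 mg/kg, 9.62 to 9.78 at 263.6 mg/kg, 9.46 to 9.73 at 527.1 mg/kg and 9.35 to 9.46 at 1054.2 mg/kg. The levels at 132 mg/kg, the group with the array of highest 3′ to 5′ difference, were thus nearly as low as at the highest dose. At 1054.2 mg/kg 6 of 9 macrophage markers fell, with 2 of 7 endothelial markers (median -0.44) and 3 of 8 stellate cell and fibroblast markers (median -0.36). Of all probe sets 1.44% fell, and of the brighter ones 2.53%. The mean over 10 T and NK cell markers was 5.74 to 5.89 in controls and 5.60 to 5.85 at 1054.2 mg/kg. None of the 10 passed limma's test, and 1 had an unadjusted p under 0.05 (15.1% of all probe sets did). The part of these cells in the Psmb8 and Psmb9 values was not tested.

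**Figure D4:**
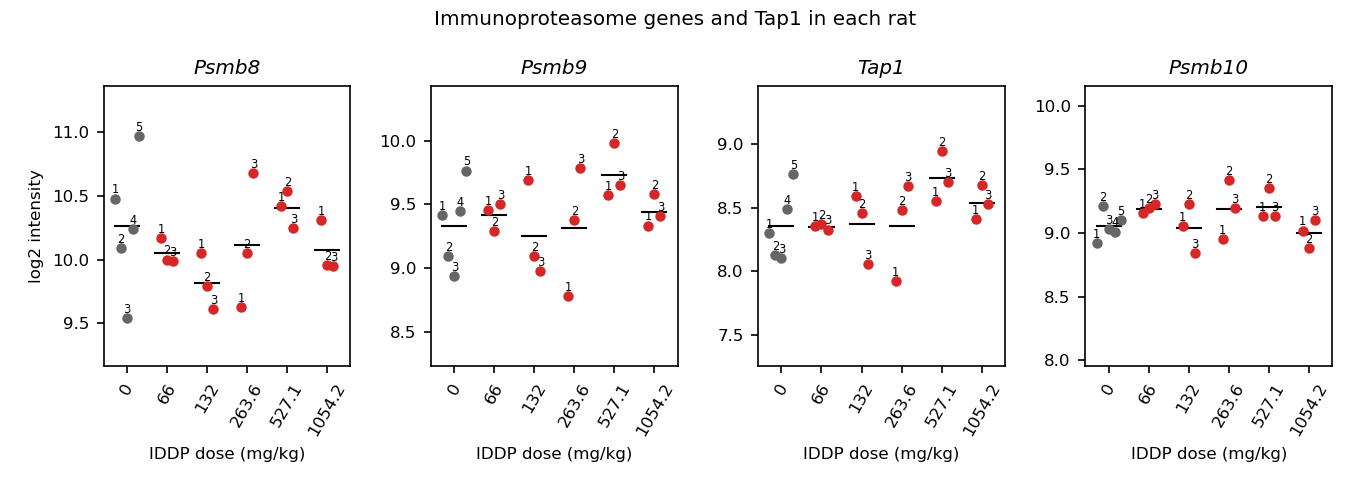
Log2 intensity (y axis) of Psmb8, Psmb9, Tap1 and Psmb10 in each rat, by IDDP dose in mg/kg, with bars at the group mean and replicate numbers above the points. In controls, replicate 5 is the highest and replicate 3 the lowest in Psmb8, Psmb9 and Tap1, and every dose group overlaps the controls in Psmb8 and Psmb9.

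Motifs of interferon signalling were read in the same promoters because Psmb8, Psmb9 and Psmb10 are textbook interferon-inducible genes. The interferon-stimulated response element, on either strand, occurred in 4 of the 33 proteasome promoters (12.1%, against 3.41% of all), those of Psmb10, at 2 places, and of the constitutive subunits Psma4, Psmb3 and Psmd7. The letters TTCNNNGAA of the gamma-activated site occurred in 4 of 33 (12.1%, against 7.67% of all), those of Psmb8 and of Psmc6, Psmd3 and Psmd7. The window of Psmb9 held neither. The matches of Psmb10 and Psmb8 are shown in capitals on the gene's strand.
Psmb10, chr19:50743336-50743385, minus strand: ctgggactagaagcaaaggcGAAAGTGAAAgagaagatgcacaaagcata
Psmb10, chr19:50743293-50743329, minus strand: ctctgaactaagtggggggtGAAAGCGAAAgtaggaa
Psmb8, chr20:4657248-4657281, minus strand: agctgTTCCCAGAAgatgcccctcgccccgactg

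Levels of several subunits varied with the RNA quality measure from rat to rat. Permutation p-values were adjusted over all 31042 probe sets. Of the 37 genes, 7 had a positive and 4 a negative relation with the 3′ to 5′ difference over 20 rats at an adjusted p under 0.05 (29.7% of the 37 in all, against 12.6% of all probe sets and 19.5% of the brighter ones). Without the 2 rats farthest from the median of the quality measure, 0 passed (0.229% of all probe sets), and 7 did at an unadjusted permutation p under 0.05 (18.9% of the 37, against 11% of all probe sets). None of the 11 calls held without those rats.

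Psmb7, the gene with the largest spread between rats of a group (residual SD 0.42), had a Pearson r of -0.72 (permutation p = 3e-05, adjusted 0.00206) and a Spearman rho of -0.82 (permutation p = 3e-05, adjusted 0.0111). Its r was -0.66 without the 2 farthest rats (permutation p = 0.00201, adjusted 0.148). Psmc6, with the largest change at 132 mg/kg, had r = 0.70 (permutation p = 0.00086, adjusted 0.0145) and rho = 0.68 (permutation p = 0.00131, adjusted 0.0599), and r = 0.65 without those rats (permutation p = 0.004, adjusted 0.193). For Psmd12 r was 0.66 (permutation p = 0.00145, adjusted 0.0199) and rho 0.52 (permutation p = 0.0203, adjusted 0.193), with r = 0.68 without those rats (permutation p = 0.00231, adjusted 0.158). The other 8 genes called over 20 rats kept the sign of r with a smaller size without those rats, the smallest for Psma2 (-0.10, against -0.72 with them) and the largest for Psmd11 (0.50, against 0.76). Psmd3 went from 0.82 to 0.34. The part of RNA quality in the values at 132 mg/kg was not tested. At 1054.2 mg/kg the quality measure lay within the range of the controls (1.24 to 1.89) in all 3 rats.

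**Figure D5:**
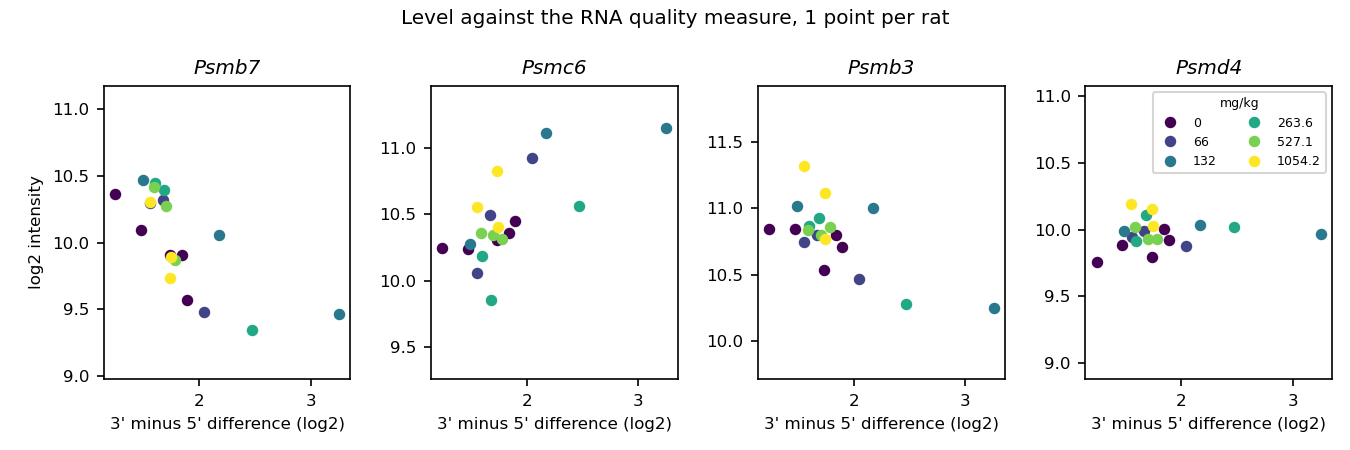
Log2 intensity (y axis) of Psmb7, Psmc6, Psmb3 and Psmd4 against the 3′ minus 5′ difference of the actin and GAPDH control probe sets (x axis, log2), 1 point per rat, coloured by IDDP dose in mg/kg. Psmb7 goes down and Psmc6 up as the difference grows, and the rats of highest difference (2.47 and 3.25) are a 263.6 and a 132 mg/kg rat.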

How the data were processed

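Liver RNA of 20 rats (100 ng each) was read on 1 Affymetrix array per rat. The deposited values are on a log2 scale and were made by the authors with RMA, per the submitters' processing notes, with the version not given in the sources used here. Of 31099 probe sets, 57 were array controls and left out. The array annotation gave 1 symbol to 20826 of the 31042 tested, several to 436 and none to 9780. limma 3.58.1 (R 4.3.3) was fitted to all of them with 1 mean per dose group over all 20 arrays, and p-values were adjusted by Benjamini-Hochberg over all 31042, with a threshold of 0.05. The trend used the dose step as a number. The number of arrays limits the precision, and levels of different probe sets were not read as relative amounts of RNA. The script was tested on simulated data.

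The proteasome genes, pathway lists and markers were chosen with earlier results of these data known. Named genes were those called, the largest and smallest change of each class at 1054.2 mg/kg, the immunoproteasome subunits, and up to 3 called genes per pathway list, with others named after their values were seen. Alternatives covered scaling, dim probe sets, variance model, probe set choice, the genes adjusted over, replicate numbers, RNA quality, groups fitted and each rat left out. Replicate numbers were not taken to pair the rats.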

Additional observations from a re-analysis of the deposited data

Results flagged for a closer look

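In the control group of 5 rats, the level of 1 rat stood far from the others in 4 of the 37 genes. The rule flags about 1 in 20 where values are normal and genes independent. Control replicate 1 was the rat in Psma6, Psmd7 and Psmd10, so the flags need not be independent. Other probe sets were not examined, and no excess is read from the count. Psma6 was 12.04 in control replicate 1 and 12.17 to 12.21 in the others. Psmd7 was 10.49 in control replicate 1 and 10.64 to 10.70 in the others. Psmd10, a base chaperone, was 9.05 in control replicate 1 and 8.85 to 8.89 in the others. Psmd5 was 9.40 in control replicate 2 and 9.70 to 9.75 in the others. Groups of 3 rats were not examined in this way.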

How the results depend on the processing

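None of the 37 genes was called in 133 of 136 refits of the 7 comparisons. The exceptions were 1 gene at 1054.2 mg/kg, 3 genes at 132 mg/kg and 1 in the dose trend when dim probe sets were left out. With each rat left out in turn, the number called ran from 0 to 1 at 1054.2 mg/kg, from 0 to 3 at 132 mg/kg and stayed at 0 in the other comparisons. The median change of the 37 genes then ran from 0.01 to 0.06 at 66 mg/kg, 0.083 to 0.17 at 132 mg/kg, -0.02 to 0.02 at 263.6 mg/kg, 0.03 to 0.09 at 527.1 mg/kg and 0.09 to 0.20 at 1054.2 mg/kg. Without the 2 arrays of highest 3′ to 5′ difference, an alternative chosen after seeing the data, the median at 132 mg/kg was 0.17, and with quantile normalization again it was 0.050. With the replicate number as a block, 0 genes were called and all probe sets called at 1054.2 mg/kg went from 1024 to 614. Of 18 arrays, 9 correlated best with their own number (6 would if the number carried nothing). Same-numbered rats of different groups had correlations from -0.35 to 0.47 (median 0.07, against -0.02 for other numbers), some of them below 0, and the number was not taken as a pairing.

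Signs turned only in uncalled genes, and the cause was not tested. With quantile normalization again, the change at 1054.2 mg/kg was -0.037 for Psmb7 and -0.032 for Psmd13, and the slope was -0.0030 for Psmb10 and -0.0024 for Psmd13. With the replicate block, Psmb8 changed by 0.037 with a slope of 0.044, and Psmb10 had a slope of -0.0022. Psmb8 had a slope of 0.0012 with array medians centred, 0.000334 with RNA quality as a covariate and 0.015 without the 1054.2 mg/kg group. Without that group the slope was -0.0042 for Psma7 and -0.0088 for Psmc6. Without the 2 arrays Psmb10 had a slope of -0.00108, and Psmc4 had -1.76e-05 with the probe set of highest variance. With a rat left out, changes at 1054.2 mg/kg ran from -0.11 to 0.0047 for Psmb10, -0.16 to 0.13 for Psmb7, -0.046 to 0.051 for Psmd13 and -0.11 to 0.020 for Psmd9. Slopes ran from -0.0027 to 0.014 for Psma7, -0.0051 to 0.014 for Psmb10, -0.025 to 0.033 for Psmb8, -0.00021 to 0.027 for Psmc6 and -0.0080 to 0.012 for Psmd13. In Psmb7, the most variable gene, the 95% interval at 1054.2 mg/kg ran from -0.54 to 0.56, so that changes inside it are not excluded by these data.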

Other observations

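Genes of MHC class I presentation and the interferon response, the setting in which the immunoproteasome works, had their highest median at 527.1 and not at 1054.2 mg/kg. Of 16 measured, 3 rose at 527.1 mg/kg, against 1.19% of all probe sets: Oas1a (1.09 ± 0.23, SE; limma, adjusted p = 0.0186), Isg15 (0.82 ± 0.20, SE; limma, adjusted p = 0.044) and Irf7 (0.66 ± 0.16, SE; limma, adjusted p = 0.0332). Their products sense viral RNA, tag proteins and drive interferon genes. Whether these calls hold with a rat left out was not examined. The median over the 16 was 0.43 at 527.1 mg/kg and 0.07 at 1054.2 mg/kg. At 1054.2 mg/kg Irf1, an activator of immunoproteasome genes, fell by 0.63 on the log2 scale (limma, adjusted p = 0.0486), a call that was lost in 5 of the 8 fits that left out 1 rat (adjusted p = 0.0278 to 0.229). Both doses share the 5 controls.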
